A study of Arabidopsis thaliana with 7 samples.

Results

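WRKY proteins are plant transcription factors named for a conserved WRKYGQK stretch beside a zinc finger, the domain with which they bind W-box sequences in promoters. They are best known in Arabidopsis for switching defence genes on and off after pathogen attack, and individual members also act in leaf senescence, abscisic acid responses, phosphate uptake, heat tolerance and development. Many WRKY genes are themselves induced by salicylic acid or by microbial molecules, and several act as repressors of other members. The family is sorted by its domains into group I, with a pair of WRKY domains, group II, with subgroups IIa to IIe, and group III, which has a different zinc finger.

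The levels of these genes were compared between whole seedlings carrying 35S:MYB106VP16 (4 arrays) and wild-type seedlings (3 arrays). Both were Columbia-0 plants aged 3 weeks, raised on sucrose-containing MS agar under long days, and total RNA was hybridised to single-colour Agilent arrays. MYB106 is a MIXTA-like MYB regulator of epidermal cells. In the transgenic plants it was joined to VP16, a viral activation domain, under the 35S promoter of cauliflower mosaic virus, which is active in most plant tissues; the sources used here do not say whether they were 1 or several lines. Each RNA came from several seedlings of a plate and nothing in the labels says that replicates were separately grown, so that the p-values capture only how far these samples scattered, in which technical scatter may play a part.

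Members were all genes with a symbol or synonym of WRKY followed by digits alone, apart from TTG2 (WRKY44), which works in trichomes and the seed coat. The rule gave 70 genes, of which 68 were among the 25347 genes with a named probe; WRKY4 and WRKY61 matched none and were not analysed here. The brightest probe stood for each gene, and testing required at least 3 arrays with that probe well above background, which held for 61 WRKY genes (87.1%) and for 20509 genes in all (80.9%). The 7 members on the array that were not tested were WRKY10, WRKY34, WRKY43, WRKY62, WRKY64, WRKY66 and WRKY67. All levels below are relative signals, that is, the processed signal divided by the 75th percentile of the same array, so that 1 is the brightness of that percentile. A member was called where limma, fitted over all 20509 genes, gave a Benjamini-Hochberg adjusted p under 0.05.

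The transgene was read first as a check of the labels. MYB106 (AT3G01140) had relative signals of 8.48, 9.80, 11.1 and 5.91 in 35S:MYB106VP16, against 0.173, 0.138 and 0.188 in wild type, a log2 change of 5.70 ± 0.22 (SE; limma adjusted p = 2.7e-05). Each genotype had a slide of its own, with a separate scan, so slide and genotype cannot be told apart in any comparison below. Markers of leaf, root and flower were detected in both genotypes, with all 6 leaf and all 8 root markers well above background on every array and 4 of 5 flower markers likewise. Summed relative signals were 278 to 342 in 35S:MYB106VP16 and 321 to 355 in wild type for leaf markers. They were 31.9 to 41.2 and 30.2 to 33 for root markers, and 1.34 to 2.24 and 0.897 to 2.01 for flower markers, in the same order of genotypes. PYK10 made up most of the root sums, and PI most of the transgenic flower sums. Mean log2 signals, which weight markers equally, were 4.11 to 4.43 and 4.49 to 4.62 for leaf markers in that order. They were -1.42 to -0.965 and -1.71 to -1.44 for root markers, and -3.59 to -2.37 and -3.38 to -2.02 for flower markers. Of the root markers 3 were called higher, among them PRP3 (log2 2.06) and EXPA7 (log2 1.02), both of root hairs. SHR was called lower (log2 -0.48), and the other 4, between log2 -0.70 (NRT2.1) and 0.18 (PYK10), were not called. The leaf markers had 0 higher (also 0 at an unadjusted p under 0.05 in limma) and 2 lower. The flower markers had 1 higher, PI (log2 1.18), while the other 4, between log2 -1.52 (AG) and -0.39 (AP1), were not called. The called shares were 50% for root, 33.3% for leaf and 20% for flower markers, beside 52.9% of all tested genes. Fewer cells of a type and less RNA per cell cannot be told apart in whole seedlings, and the part of organ proportions in the WRKY values was not tested.

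Within the WRKY family more members rose than fell. That order was turned round only when arrays were scaled to spike-in RNAs (12 higher and 29 lower). The deepest falls were those of WRKY54 and WRKY70. Both are in the list for salicylic acid and defence against biotrophic pathogens, of whose 9 tested members 5 rose and 2 fell. Of 61 tested members 25 were called higher (41%), 14 lower (23%) and 22 neither. The share called in either direction was 63.9%, against 52.9% of all tested genes, in which 28.1% were called higher and 24.8% lower. Changes of at least 2-fold were called upward in 11 members (18%, with 5.77% of all genes) and downward in 3 (4.92%, with 4.72% of all genes). After normexp background correction, which adds an offset to every signal, WRKY45, WRKY60, WRKY75 and WRKY28 still rose at least 2-fold (log2 1.06 to 2.49). The other rises ranged from log2 0.18 (WRKY58) to 0.97 (WRKY47). Of the falls, WRKY54 and WRKY70 stayed beyond 2-fold and WRKY40 was at log2 -0.995. No such 2-fold count was made over all genes. The array values of the genotypes did not overlap for 36 members (59%), a share near the 57.6% of all genes; they were higher in 23 (30.4% of all genes) and lower in 13 (27.2% of all genes). The median log2 change was 0.22 over the family and 0.02 over all tested genes, and the median absolute log2 change was 0.54 and 0.34. The family's median stayed at 0.22 with members lacking clear wild-type signal at their bounds, but was 0.12 with the mean over probes, 0.13 after normexp, 0.14 without transgenic replicate 4 and 0.12 without wild-type replicate 1, beside -0.02, 0.01, 0.01 and 0.03 over all genes. Most members were dim, with a median log2 relative signal of -1.99, against -0.74 for all tested genes. The 61 members were those passing the detection filter, and counts over them are descriptions of that set. Of these, WRKY30 and WRKY50 passed through transgenic arrays alone, so the filter itself favoured a rise for them. Both are among the 25, WRKY30 is among the 11 at 2-fold, and both enter the counts of the groups and lists that hold them. WRKY38, also among the 11, had 2 wild-type arrays well above background and so needed transgenic arrays to pass. No tested member passed through wild-type arrays alone.

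**Figure D1:**
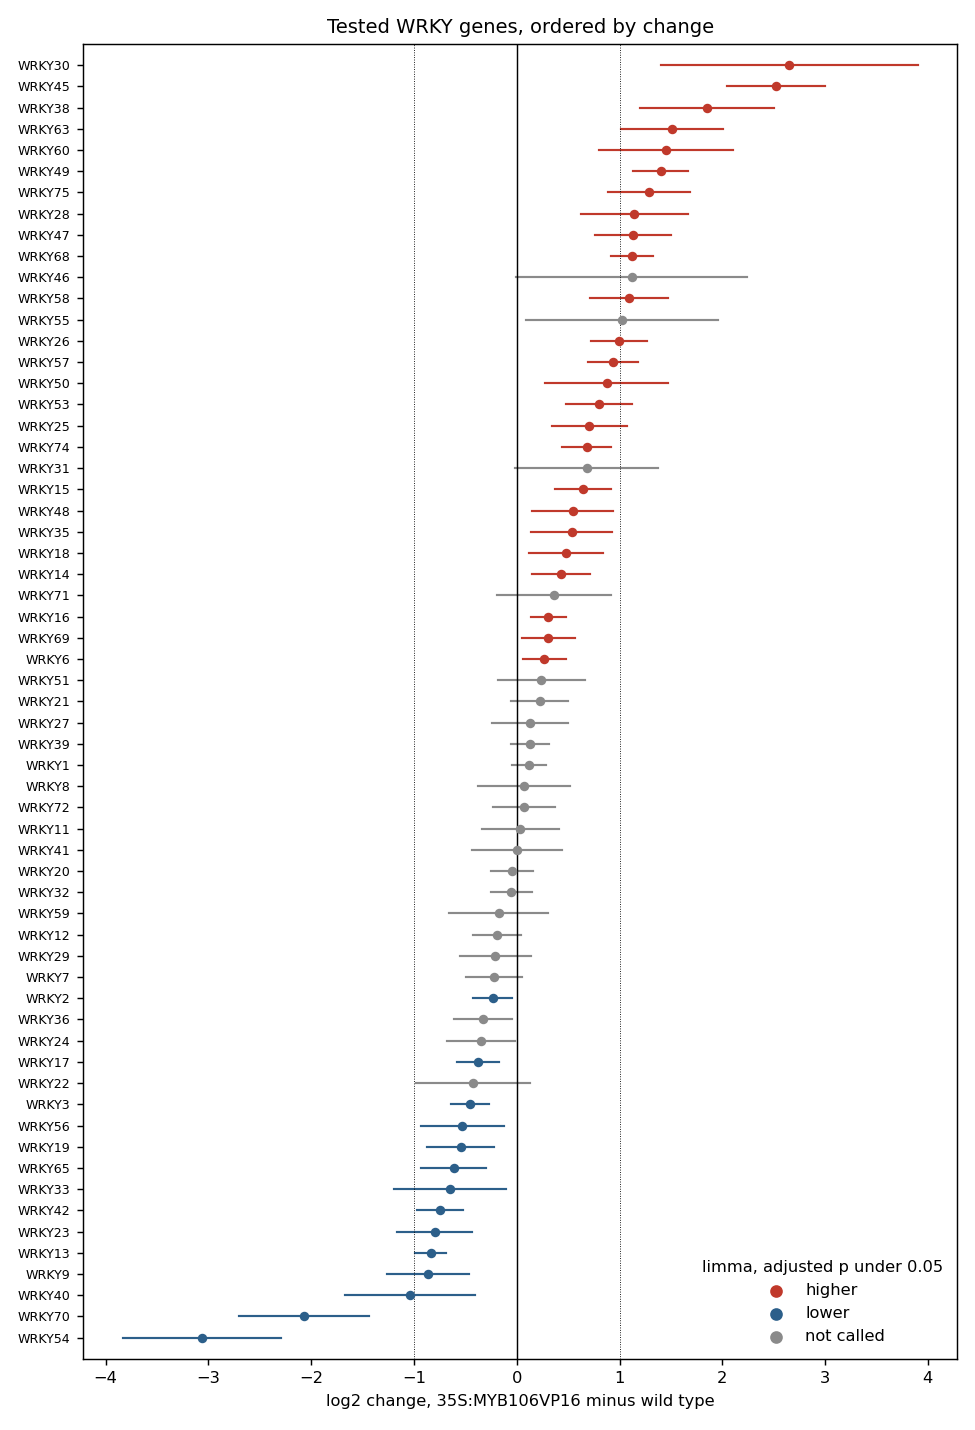
Log2 change of the relative signal, 35S:MYB106VP16 (n = 4) minus wild type (n = 3), for the 61 tested WRKY genes in order of change, with 95% limma intervals as bars and dotted lines at 2-fold. Red members were called higher (25) and blue members lower (14) at an adjusted p under 0.05, and grey members were not called (22). The fitted points of WRKY30 and WRKY50 are not bounds, since no wild-type array was well above background for either.

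The member that rose most among those measured on every array was WRKY45 (AT3G01970), a group IIc factor known to activate phosphate uptake genes and to promote senescence. Its relative signals were 2.54, 2.65, 4.05 and 3.45 in 35S:MYB106VP16, against 0.478, 0.691 and 0.483 in wild type. Every transgenic array was several times brighter than every wild-type array, a 5.74-fold difference (log2 2.52 ± 0.20, SE; limma adjusted p = 0.000201). WRKY75 (AT5G13080), its close relative and a regulator of phosphate starvation responses, root hairs and senescence, had 0.8285, 0.885, 1.05 and 1.28 in 35S:MYB106VP16, against 0.348, 0.470 and 0.418 in wild type. The groups again stood apart, by 2.44-fold (log2 1.29 ± 0.17, SE; limma adjusted p = 0.000949), and its other probe gave a log2 change of 1.35.

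The phosphate and mineral nutrition list had 5 members, all tested, of which 4 rose and 1 fell. All were thus called, beside 52.9% of all genes, and the median log2 change was 1.13 beside 0.02 over all genes. The next largest rise in it was WRKY47 (AT4G01720), a group IIb gene tied to aluminium tolerance, at 0.597, 0.498, 0.759 and 0.708 in 35S:MYB106VP16, against 0.267, 0.326 and 0.277 in wild type. The arrays did not overlap (log2 1.13 ± 0.16, SE; limma adjusted p = 0.00112), but a second, dimmer probe of WRKY47 showed a log2 change of 0.16 that was not called (limma adjusted p = 0.371). WRKY42, a repressor of the phosphate exporter gene PHO1, was the member that fell, at 0.00669, 0.00652, 0.00703 and 0.00714 in 35S:MYB106VP16, against 0.0131, 0.0102 and 0.0113 in wild type. That change (log2 -0.75; limma adjusted p = 0.000852) lay close to background and was not called after normexp background correction (log2 -0.18; limma adjusted p = 0.281). WRKY6, which also represses PHO1 and acts in senescence, was called higher by a small amount (log2 0.27; limma adjusted p = 0.0382). The WRKY6 call was lost without any single array other than wild-type replicate 2 (limma adjusted p 0.0558 to 0.118), and its second probe pointed the other way at log2 -0.32. PHO1 itself had a log2 change of 0.05 (limma adjusted p = 0.765), and the phosphate transporter gene PHT1;1, a known target of WRKY45 and WRKY42, had 0.08 (limma adjusted p = 0.754).

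**Figure D2:**
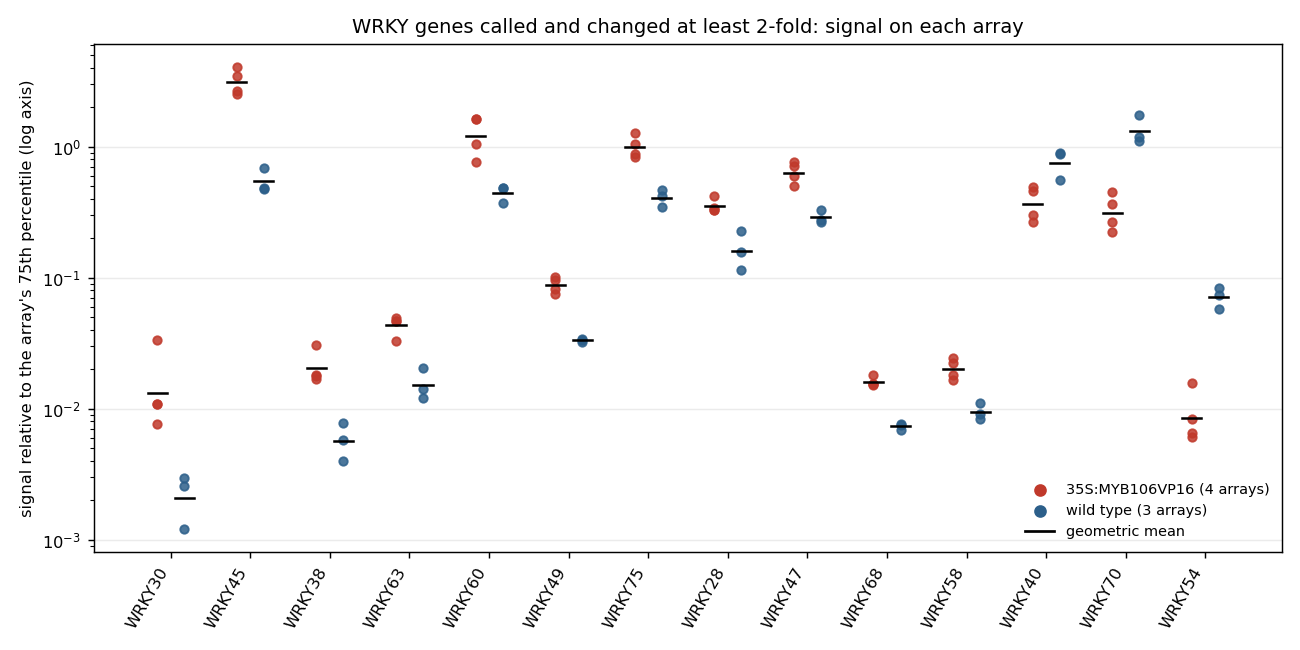
Relative signal on each array (log scale; processed signal divided by the 75th percentile of the array) of the 14 WRKY genes called with a change of at least 2-fold, 35S:MYB106VP16 arrays left of wild-type arrays for each gene, with horizontal lines at the geometric means. WRKY45 lies at 2.54 to 4.05 in 35S:MYB106VP16 and 0.478 to 0.691 in wild type, and WRKY70 at 0.223 to 0.448 and 1.10 to 1.75.

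The deepest falls were those of WRKY54 and WRKY70, related group III genes that restrain senescence and act downstream of salicylic acid. WRKY70 (AT3G56400) had relative signals of 0.264, 0.364, 0.223 and 0.448 in 35S:MYB106VP16, against 1.10, 1.18 and 1.75 in wild type. The brightest transgenic array was below the dimmest wild-type array, a 4.20-fold fall (limma adjusted p = 0.000858; log2 -2.07 ± 0.27, SE). WRKY54 (AT2G40750) had 0.00603, 0.00831, 0.00653 and 0.0157 in 35S:MYB106VP16, against 0.0737, 0.0575 and 0.0838 in wild type. Only 3 of the 4 transgenic arrays were well above background for it, so the 8.36-fold fall (log2 -3.06 ± 0.33, SE; limma adjusted p = 0.000434) has an uncertain size, and normexp gave log2 -1.36 with the call unchanged (limma adjusted p = 0.000116). WRKY55, the gene next to WRKY54 in the RefSeq order, acts in senescence and salicylic acid accumulation. Its signals of 0.0110, 0.0115, 0.00394 and 0.0115 in 35S:MYB106VP16, against 0.00546, 0.00417 and 0.00341 in wild type, overlapped and were not called (log2 1.02; limma adjusted p = 0.0632).

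Other group III genes were brighter in the transgenic seedlings, so this group held the family's deepest falls beside some of its largest rises. Of its 13 members 9 were tested, 4 rose, 2 fell and 3 were not called, a called share of 66.7% beside 52.9% of all genes. The median log2 change of 1.025 was the value of WRKY55, which was not called and had log2 0.13 after normexp. WRKY30 (AT5G24110), a gene induced by oxidative stress, had 0.0110, 0.0334, 0.00761 and 0.0108 in 35S:MYB106VP16, against 0.00120, 0.00259 and 0.00296 in wild type. None of the wild-type arrays was well above background for WRKY30, so its rise in processed signal is a bound, at least 2.58-fold (limma adjusted p = 0.00506). Its other probe was well above background on 1 transgenic array only and was not tested. WRKY38 (AT5G22570), a repressor of basal defence, had 0.0179, 0.0182, 0.0169 and 0.0307 in 35S:MYB106VP16, against 0.00578, 0.00398 and 0.00774 in wild type. Its rise (log2 1.85 ± 0.28, SE; limma adjusted p = 0.00156) rests on 2 of 3 wild-type arrays well above background. A second probe was also called higher, but no wild-type array was well above background for it, so it gives no size. WRKY63, listed under the symbol ABO3 (AT1G66600) and needed for abscisic acid and drought responses, had 0.0490, 0.0468, 0.0328 and 0.0465 in 35S:MYB106VP16, against 0.0121, 0.0205 and 0.0142 in wild type. All 4 transgenic arrays exceeded the wild-type ones, by 2.85-fold on average (log2 1.51 ± 0.21, SE; limma adjusted p = 0.00117). After normexp, which adds an offset to every signal, all of these calls remained, at smaller log2 changes of 0.55 for WRKY30 (below the bound given), 0.53 for WRKY38 and 0.77 for WRKY63.

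WRKY53, a promoter of leaf senescence in group III, was 1.74-fold higher (log2 0.80 ± 0.14, SE; limma adjusted p = 0.00267), with 0.0781, 0.0790, 0.0565 and 0.0602 in 35S:MYB106VP16, against 0.0370, 0.0409 and 0.0387 in wild type. Its other probe gave log2 0.11. WRKY46, which acts in drought responses and basal defence, had 0.0490, 0.180, 0.0385 and 0.0606 in 35S:MYB106VP16, against 0.0317, 0.0292 and 0.0323 in wild type. Although no array overlapped, 1 transgenic array lay far above the rest and WRKY46 was not called (log2 1.12 ± 0.48, SE; limma adjusted p = 0.0865). WRKY41, a regulator of seed dormancy, had a log2 change of 0.00 (limma adjusted p = 0.993).

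**Figure D3:**
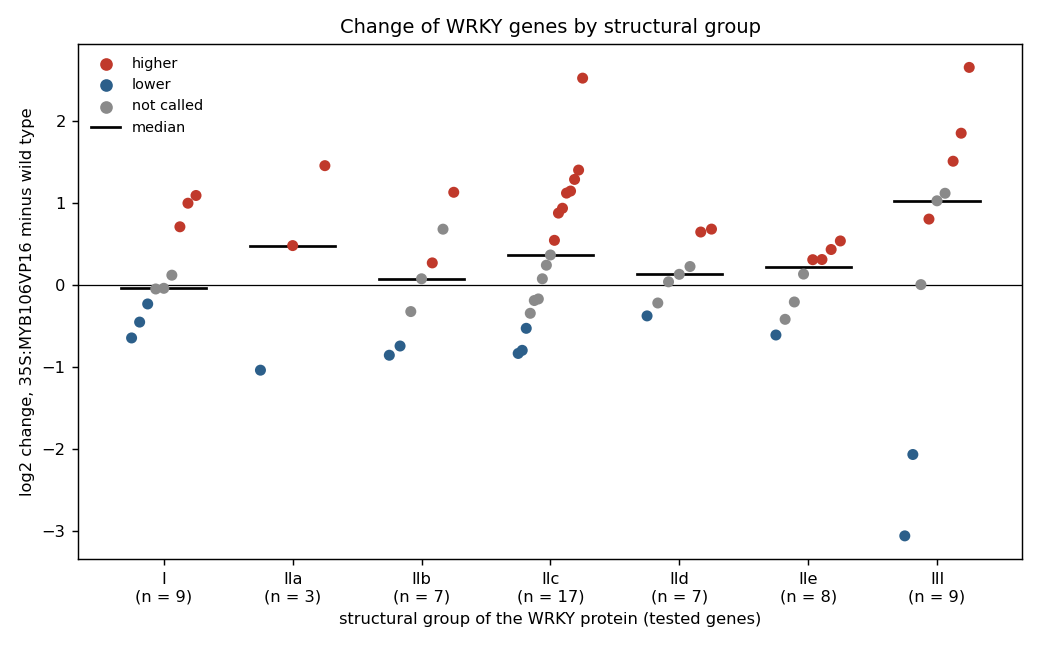
Log2 change, 35S:MYB106VP16 minus wild type, of each tested WRKY gene by structural group, with the group's median as a line and n the number of tested genes. Group III spans -3.06 to 2.65 (WRKY30, as fitted) with a median of 1.025, the value of WRKY55, which was not called. All 7 genes of group IId lie between -0.38 and 0.68. WRKY19, which belongs to none of these groups, is not drawn.

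In the list for salicylic acid and defence against biotrophic pathogens, 9 of 10 members were tested, 5 rose and 2 fell. The called share was 77.8% beside 52.9% of all genes. The median log2 change was 0.80 (0.48 with the member lacking wild-type signal at its bound). Beside the group III members described above, the list held WRKY28 (AT4G18170), an activator of the salicylic acid synthesis gene ICS1. Its relative signals were 0.330, 0.338, 0.420 and 0.330 in 35S:MYB106VP16, against 0.115, 0.228 and 0.156 in wild type, without overlap (log2 1.14 ± 0.22, SE; limma adjusted p = 0.00435), and a second probe gave log2 1.19. ICS1 had a log2 change of -0.38 and was not called (limma adjusted p = 0.133). WRKY50, which with WRKY51 links salicylic acid to reduced jasmonate signalling, had 0.00776, 0.00568, 0.00455 and 0.00677 in 35S:MYB106VP16, against 0.00250, 0.00303 and 0.00478 in wild type. Since 0 of 3 wild-type arrays exceeded background clearly, its rise in processed signal was at least 1.19-fold (limma adjusted p = 0.0236). The call was lost without transgenic replicate 1 (limma adjusted p = 0.0525) or 4 (0.0539). It was also lost without wild-type replicate 1 (0.0798) or 2 (0.0736), and after normexp (0.645). A second probe of WRKY50 was well above background on no array. WRKY51 had a log2 change of 0.24 (limma adjusted p = 0.297).

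Senescence regulators of the family changed in both directions. All 9 members of that list were tested, 5 rose and 2 fell, a called share of 77.8% beside 52.9% of all genes. The median log2 change was 0.80. The risers were WRKY45, WRKY75, WRKY53, WRKY6 and WRKY57, and the fallers were the repressors of senescence WRKY54 and WRKY70. WRKY57, which also raises drought tolerance and slows jasmonate-induced senescence, had 0.275, 0.283, 0.316 and 0.248 in 35S:MYB106VP16, against 0.157, 0.151 and 0.133 in wild type. These values were tight within each genotype and did not overlap (log2 0.93 ± 0.10, SE; limma adjusted p = 0.000484). SAG12, a protease gene of late senescence and a listed target, was well above background on no array of either genotype.

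The abscisic acid and germination list was called in 6 of its 7 members (85.7%, beside 52.9% of all genes). Of these 4 were higher and 2 lower, and the median log2 change of the list was 0.48. It contains all 3 group IIa genes, whose proteins form complexes with each other and repress both defence and abscisic acid responses, and which did not move together. WRKY60 (AT2G25000) had relative signals of 1.05, 1.64, 1.62 and 0.769 in 35S:MYB106VP16, against 0.480, 0.487 and 0.369 in wild type, a rise of 2.74-fold (log2 1.45 ± 0.28, SE; limma adjusted p = 0.00414). WRKY40 (AT1G80840) had 0.301, 0.463, 0.267 and 0.489 in 35S:MYB106VP16, against 0.553, 0.894 and 0.875 in wild type, a fall of 2.06-fold (log2 -1.04 ± 0.27, SE; limma adjusted p = 0.0145). For both genes every transgenic array lay on the same side of every wild-type array. The WRKY40 call was narrowly lost without wild-type replicate 2 (limma adjusted p = 0.0533) or 3 (0.0555) and in the authors' series table (0.0542), while its second probe had log2 -0.94. WRKY18 had 1.28, 1.53, 1.83 and 1.47 in 35S:MYB106VP16, against 0.896, 1.19 and 1.21 in wild type (log2 0.48 ± 0.15, SE; limma adjusted p = 0.0320). That call was lost without transgenic replicate 2 (0.0628), 3 (0.0609) or 4 (0.0531) or wild-type replicate 1 (0.0969). WRKY2, which holds back germination after stress, was called lower by log2 -0.23 (limma adjusted p = 0.0413), a call lost without transgenic replicate 2 (0.0860) or 3 (0.0821) or any wild-type array (0.0772 to 0.142).

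Group I contains the heat tolerance factors WRKY25 and WRKY26 and the camalexin regulator WRKY33. Of its 12 members 9 were tested, 3 rose, 3 fell and 3 were not called, a called share of 66.7% beside 52.9% of all genes. The median log2 change was -0.04. WRKY26 (AT5G07100) had 2.05, 1.84, 2.31 and 2.09 in 35S:MYB106VP16, against 0.933, 1.199 and 0.991 in wild type, a clear separation (log2 1.00 ± 0.12, SE; limma adjusted p = 0.000561). WRKY25 had 2.12, 2.94, 1.95 and 2.50 in 35S:MYB106VP16, against 1.252, 1.53 and 1.55 in wild type, and likewise did not overlap (log2 0.71 ± 0.16, SE; limma adjusted p = 0.00752). WRKY58 (AT3G01080), reported to dampen systemic acquired resistance, had 0.0182, 0.0165, 0.0222 and 0.0246 in 35S:MYB106VP16, against 0.0110, 0.00914 and 0.00837 in wild type. Its 2.13-fold rise (log2 1.09 ± 0.16, SE; limma adjusted p = 0.00146) rests on signals near background and was not called after normexp (log2 0.18; limma adjusted p = 0.227).

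WRKY33, needed for resistance to necrotrophic fungi, had 0.781, 0.950, 0.980 and 1.01 in 35S:MYB106VP16, against 0.955, 1.67 and 1.92 in wild type. The genotypes overlapped, and the call stood at the threshold (log2 -0.65 ± 0.23, SE; limma adjusted p = 0.04995). It was lost without any of the 4 transgenic arrays (0.0697 to 0.107) and without wild-type replicate 2 (0.147) or 3 (0.167). WRKY3, which also acts against necrotrophs, had 1.07, 1.18, 1.15 and 1.04 in 35S:MYB106VP16, against 1.41, 1.58 and 1.58 in wild type (log2 -0.46; limma adjusted p = 0.00276), and its other probe gave log2 -1.08. In the heat tolerance list, 2 of 4 members rose, 1 fell and WRKY39 was not called, a called share of 75% beside 52.9% of all genes. The median log2 change was 0.42.

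Of 7 members tied to early responses to microbial patterns, all tested, 1 rose and 2 fell, a called share of 42.9% beside 52.9% of all genes, with a median log2 change of -0.22. WRKY22 and WRKY29, classical endpoints of the flagellin-triggered MAP kinase cascade, had log2 changes of -0.42 (limma adjusted p = 0.171) and -0.21 (0.266). WRKY17, a negative regulator of basal defence in group IId, had 0.479, 0.480, 0.434 and 0.485 in 35S:MYB106VP16, against 0.564, 0.677 and 0.595 in wild type. This small fall did not overlap (log2 -0.38; limma adjusted p = 0.00872), was deeper on a second probe at log2 -1.4, and was smaller after normexp at log2 -0.25. WRKY7 and WRKY11, its relatives in the same group, had log2 changes of -0.22 and 0.04 and were not called (limma adjusted p = 0.148 and 0.862).

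Group IIc is the largest group, with 17 of 18 members tested, 8 higher, 3 lower and 6 not called. The called share was 64.7% beside 52.9% of all genes. Its median log2 change was 0.36, or 0.25 with WRKY50 at its bound. Beside WRKY45, WRKY75 and WRKY28, it held WRKY49 (AT5G43290) and WRKY68 (AT3G62340) among the 2-fold rises. WRKY49 had relative signals of 0.0958, 0.0813, 0.0748 and 0.101 in 35S:MYB106VP16, against 0.0335, 0.0321 and 0.0340 in wild type (log2 1.4 ± 0.12, SE; limma adjusted p = 0.000206). WRKY68 had 0.0156, 0.0181, 0.0151 and 0.0154 in 35S:MYB106VP16, against 0.00756, 0.00694 and 0.00762 in wild type (log2 1.12 ± 0.09, SE; limma adjusted p = 0.000171). Both were dim genes with tight replicates and no overlap, and after normexp they stayed called at log2 0.85 and 0.28. A second probe of WRKY68 was well above background on no array. WRKY48, a repressor of defence against Pseudomonas, was called at log2 0.54 (limma adjusted p = 0.0289) but not without transgenic replicate 3 (0.0590) or wild-type replicate 1 (0.0950) or 3 (0.0977). WRKY56 was called lower at log2 -0.53 (limma adjusted p = 0.0343), a call lost without transgenic replicate 1, 2 or 3 or wild-type replicate 1 or 2 (0.0740 to 0.117).

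The developmental regulators of the family had 0 rises in limma (0 also at an unadjusted p under 0.05) and 3 falls among 5 tested of 7 listed. The called share was 60% beside 52.9% of all genes, and the median log2 change was -0.23. WRKY13, an activator of lignin deposition in stems, had 0.0208, 0.0195, 0.0206 and 0.0210 in 35S:MYB106VP16, against 0.0361, 0.0355 and 0.0381 in wild type. The values were nearly constant within each genotype (log2 -0.84 ± 0.07, SE; limma adjusted p = 0.000180), and normexp gave log2 -0.33. WRKY23, an auxin-responsive factor of root development, had 0.291, 0.275, 0.221 and 0.358 in 35S:MYB106VP16, against 0.460, 0.527 and 0.487 in wild type, also without overlap (log2 -0.80 ± 0.16, SE; limma adjusted p = 0.00453). The other faller was WRKY2. WRKY12, which represses secondary walls in pith, had a log2 change of -0.19 (limma adjusted p = 0.147), and WRKY71, a promoter of shoot branching, had 0.36 (0.228). WRKY10, known as MINI3 and active in seeds, and the pollen gene WRKY34 were not tested.

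Group IIb had 2 rises, WRKY47 and WRKY6, and 2 falls among 7 tested members, a called share of 57.1% beside 52.9% of all genes. WRKY9 (AT1G68150) had 0.247, 0.270, 0.253 and 0.308 in 35S:MYB106VP16, against 0.385, 0.636 and 0.472 in wild type, so that every transgenic array was dimmer (log2 -0.86 ± 0.17, SE; limma adjusted p = 0.00477). WRKY31 had a log2 change of 0.68 and was not called (limma adjusted p = 0.0888). The brightest probe of WRKY72, a gene of basal defence, had log2 0.07 (limma adjusted p = 0.655), whereas its other probe had log2 -1.01 (0.00610).

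On the probes standing for each gene, changes in groups IId and IIe stayed below 2-fold. In group IId, 2 of 7 members rose and 1 fell (42.9% called, beside 52.9% of all genes). WRKY74 (AT5G28650) had 0.0790, 0.0703, 0.0775 and 0.0736 in 35S:MYB106VP16, against 0.0451, 0.0544 and 0.0419 in wild type (log2 0.68 ± 0.10, SE; limma adjusted p = 0.00158; log2 0.45 after normexp). WRKY15 (AT2G23320), a regulator of leaf cell expansion and osmotic stress responses, had 3.34, 3.27, 3.16 and 3.33 in 35S:MYB106VP16, against 1.80, 2.52 and 2.03 in wild type (log2 0.64 ± 0.12, SE; limma adjusted p = 0.00316). Neither gene's arrays overlapped. In group IIe, 4 of 8 members rose and 1 fell (62.5% called, beside 52.9% of all genes). The faller, WRKY65 (AT1G29280), had 2.21, 2.70, 2.55 and 2.51 in 35S:MYB106VP16, against 3.23, 4.66 and 3.65 in wild type (log2 -0.61 ± 0.14, SE; limma adjusted p = 0.00760). WRKY35 had 0.0818, 0.0926, 0.0954 and 0.115 in 35S:MYB106VP16, against 0.0824, 0.0646 and 0.0536 in wild type. These overlapped, and the call (log2 0.54 ± 0.17, SE; limma adjusted p = 0.0300) was lost without transgenic replicate 2 (0.0532), 3 (0.0576) or 4 (0.0608) or wild-type replicate 2 (0.0812) or 3 (0.105), while a second probe gave log2 -0.43.

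The remaining calls concerned WRKY14, WRKY69, WRKY16 and WRKY19. WRKY14 was higher by log2 0.43 (limma adjusted p = 0.0194; 0.0780 without wild-type replicate 3). WRKY69 was higher by log2 0.31 (limma adjusted p = 0.0498), a call lost without any array other than transgenic replicate 1 (0.0524 to 0.145). WRKY16, listed as TTR1, encodes a resistance-type protein carrying a WRKY domain and was higher by log2 0.31 (limma adjusted p = 0.0102; 0.0688 after normexp). WRKY19, also known as MEKK4, joins a WRKY domain to resistance protein and kinase parts, and it was lower by log2 -0.54 (limma adjusted p = 0.0141; 0.0525 without wild-type replicate 2 and 0.0545 without replicate 3).

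Closely related WRKY genes were set against each other. Of 10 related pairs, 8 had both genes tested, and for each the difference between the genes' log2 signals was compared between genotypes by a two-sided exact permutation test over arrays, adjusted over the 8 pairs. The smallest p that 4 against 3 arrays allow is 0.0286, and after adjustment it became 0.0572, so that no pair passed. The change of WRKY18 exceeded that of WRKY40 by 1.52 on the log2 scale, and the per-array differences did not overlap (exact p = 0.0286, adjusted 0.0572). The same p was reached by WRKY25 over WRKY33 (1.36), by WRKY45 over WRKY75 (1.24) and by WRKY54 less WRKY70 (-0.99). For that last pair the order depended on the background, since normexp gave log2 -1.36 for WRKY54 and -2.04 for WRKY70. WRKY31 exceeded WRKY42 by 1.43 (exact p = 0.0571, adjusted 0.0914). The pairs WRKY50 and WRKY51 (0.64; exact p = 0.114, adjusted 0.130), WRKY11 and WRKY17 (0.42; 0.114, adjusted 0.130) and WRKY22 and WRKY29 (-0.21; 0.371, adjusted 0.371) overlapped.

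**Figure D4:**
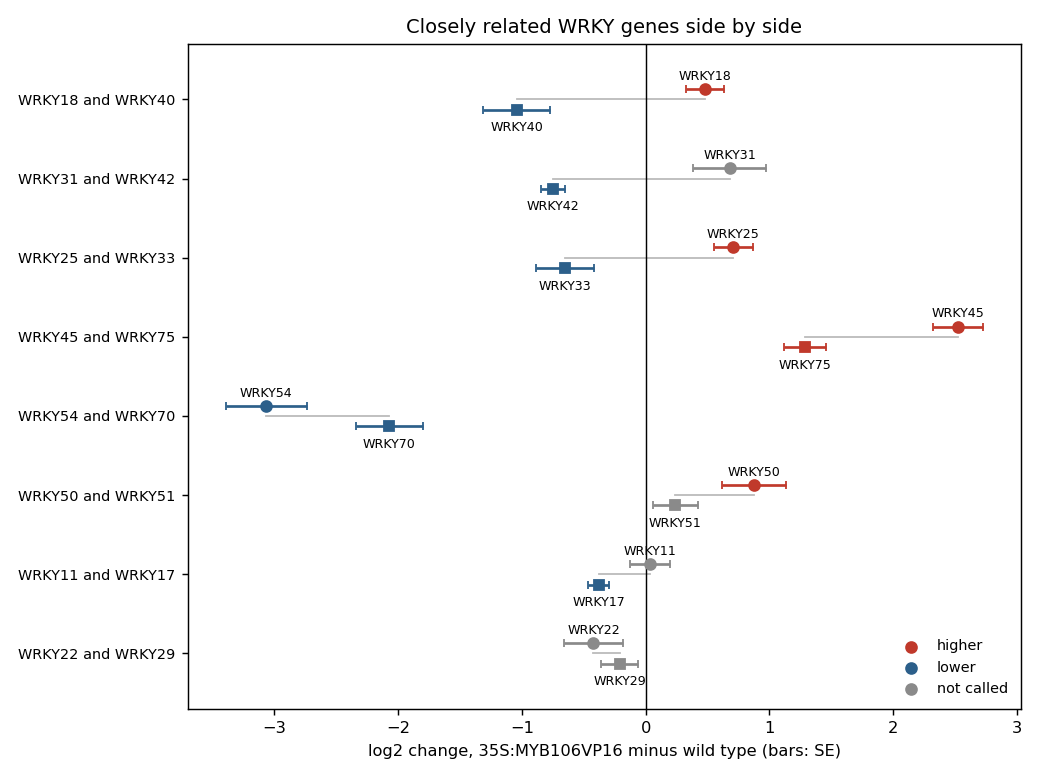
Log2 change, 35S:MYB106VP16 minus wild type, of both genes of 8 related WRKY pairs, with SE as bars and colours for the limma call. WRKY18 and WRKY40, like WRKY25 and WRKY33, lie on opposite sides of 0, while WRKY54 and WRKY70 both lie below -2 and WRKY45 and WRKY75 both above 1.

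Of 12 partner genes, covering the MAP kinase cascades that phosphorylate WRKY proteins and the VQ and histone deacetylase proteins that bind them, 0 were called higher in limma (1 at an unadjusted p under 0.05) and 4 lower, a share of 33.3% beside 52.9% of all genes; their median log2 change was -0.04. SIB1, a VQ protein that binds WRKY33, had relative signals of 0.137, 0.156, 0.106 and 0.163 in 35S:MYB106VP16, against 0.248, 0.218 and 0.261 in wild type (log2 -0.80 ± 0.16, SE; limma adjusted p = 0.00451). MKK1, a kinase upstream of MPK4, had 0.444, 0.439, 0.448 and 0.408 in 35S:MYB106VP16, against 0.578, 0.623 and 0.681 in wild type (log2 -0.53 ± 0.08, SE; limma adjusted p = 0.00163). Both were lower on every transgenic array. MPK3 (log2 -0.28; limma adjusted p = 0.0211, and 0.0893 without wild-type replicate 3) and its activator MKK4 (log2 -0.25; 0.0204, and 0.0883 or 0.0581 without wild-type replicate 2 or 3) were the other falls. The count of falls was 2 without wild-type replicate 3 and 0 in the authors' series table. The kinases MPK4 and MPK6 had log2 changes of -0.02 and -0.05 and were not called (limma adjusted p = 0.879 and 0.586).

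Of 15 listed targets of WRKY factors 13 were tested, 4 rose and 1 fell, a called share of 38.5% beside 52.9% of all genes, and the median log2 change was 0.08. CYP71A13, a camalexin synthesis enzyme under WRKY33, had 0.0539, 0.0293, 0.0851 and 0.0887 in 35S:MYB106VP16, against 0.00125, 0.00166 and 0.00160 in wild type. None of the wild-type arrays was well above background, so the rise in processed signal is at least 11.5-fold (limma adjusted p = 0.000138), while normexp, which adds an offset, gave log2 1.4. CYP71A13 passed the detection filter through transgenic arrays alone, so the filter itself favoured its place among the 4 rises. The same holds in part for FRK1, which had 1 wild-type array well above background and needed transgenic arrays to pass. Where all 7 arrays had to be well above background, 2 targets were called higher. FRK1, a receptor kinase gene induced by flagellin, had 0.0365, 0.0107, 0.0283 and 0.0286 in 35S:MYB106VP16, against 0.00706, 0.00526 and 0.00346 in wild type, of which 1 was well above background (log2 2.23 ± 0.44, SE; limma adjusted p = 0.00459; log2 0.62 after normexp). SARD1, an activator of salicylic acid synthesis, had 0.0453, 0.0838, 0.0410 and 0.0452 in 35S:MYB106VP16, against 0.0160, 0.0223 and 0.0289 in wild type (log2 1.24 ± 0.29, SE; limma adjusted p = 0.00979; log2 0.66 after normexp). In all 3 of these genes every transgenic array was the brighter.

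The ethylene synthesis genes ACS2 and ACS6, both targets in the WRKY33 and MAP kinase pathway, went opposite ways. ACS6 had 0.288, 0.330, 0.202 and 0.350 in 35S:MYB106VP16, against 0.637, 0.565 and 0.649 in wild type (log2 -1.11 ± 0.19, SE; limma adjusted p = 0.00252). ACS2 had 0.0286, 0.0533, 0.0293 and 0.0796 in 35S:MYB106VP16, against 0.0195, 0.0256 and 0.0199 in wild type. Its call (log2 1.01 ± 0.36, SE; limma adjusted p = 0.0486) was lost without transgenic replicate 2 (0.103) or 4 (0.0588) or any wild-type array (0.0717 to 0.126). PAD3, which completes camalexin synthesis, had 0.287, 0.148, 0.0901 and 0.658 in 35S:MYB106VP16, against 0.246, 0.288 and 0.255 in wild type, a wide spread between transgenic arrays with no call (log2 -0.23; limma adjusted p = 0.771). CYP71A12, a relative of CYP71A13, was also uneven, with 0.307 on transgenic replicate 4 beside 0.0241 to 0.0448 on the others, against 0.0140 to 0.0276 in wild type (log2 1.59; limma adjusted p = 0.134). NPR1, the salicylic acid receptor gene, and CBP60G were not called (limma adjusted p = 0.162 and 0.820).

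Where several probes of a WRKY gene were tested, they mostly pointed one way by sign. Of 20 tested members with several tested probes, 17 had all probes of the same sign, and no member had probes called in opposite directions. Among the called members 13 of 15 did so, the exceptions being WRKY6 and WRKY35. A shared sign did not mean a call on each probe, since the second probes of WRKY18, WRKY47 and WRKY53 were not called. For WRKY19, WRKY30, WRKY50, WRKY59 and WRKY68 a second probe was too dim to be tested, so these members are outside that count.

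The scale chosen for the arrays moved all genes alike and with them the split of calls. With the 75th percentile 64.1% of the called WRKY genes were higher, against 72.5% with the median, 81.8% in the table deposited by the authors and 29.3% with the bright spike-in RNAs as the scale. The median log2 change of all tested genes was 0.02, 0.14, 0.23 and -0.54 under these scales, and that of the tested WRKY genes was 0.22, 0.34, 0.43 and -0.34. The distance between the medians is fixed across these scales, since each adds 1 constant per array to every gene. The sources used here do not say whether both genotypes received equal amounts of spike-in RNA. Of the 14 calls of at least 2-fold, 11 were kept under every alternative that tested them, and WRKY28 (limma adjusted p = 0.0541 with spike-in scaling), WRKY40 and WRKY58 were not. A call counted as kept where the sign was the same and the adjusted p stayed under 0.05, even if the change fell below 2-fold. Spike-in scaling also ended the calls of WRKY15, WRKY25, WRKY50, WRKY53, WRKY74, ACS2 and SARD1 (limma adjusted p 0.0803 to 0.668). The authors' table also ended those of WRKY2, WRKY3, WRKY17, WRKY19, WRKY33, WRKY56 and WRKY65 (limma adjusted p 0.0853 to 0.885). Smaller rises, such as those of WRKY14, WRKY16, WRKY18, WRKY35, WRKY48, WRKY6 and WRKY69, had a negative sign with spike-in scaling.

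**Figure D5:**
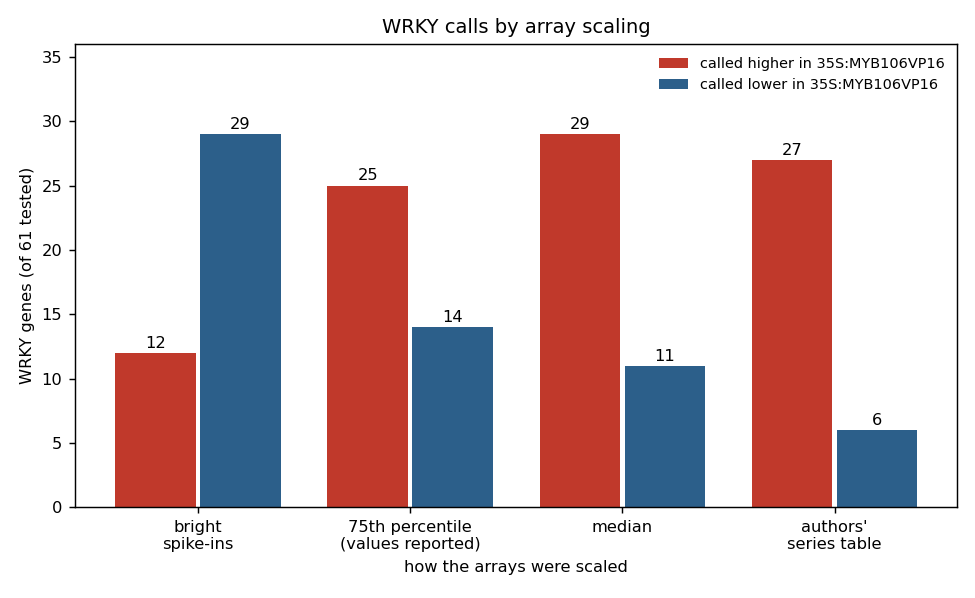
Number of tested WRKY genes called higher (red) and lower (blue) in 35S:MYB106VP16 than in wild type at a limma adjusted p under 0.05, by the way the arrays were scaled. Higher and lower calls number 25 and 14 with the 75th percentile, and 12 and 29 with the spike-ins.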

How the data were processed

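The deposited scanner values are spot intensity from Agilent Feature Extraction (version 9.1.3.1 per the submitters' processing notes), background-subtracted per the file headers. Each of 7 arrays held 43603 probes, 34185 of which matched a gene of the RefSeq table (TAIR10.1) by accession. The 75th percentile signal was 2213 to 2858 in 35S:MYB106VP16 and 2492 to 2677 in wild type, 73.5% to 76.3% of probes were well above background and none was saturated; the number of arrays limits the precision. Here, replicate spots were averaged and log2 signal was expressed relative to that percentile. The authors' deposited series table holds the same intensity values divided by a constant of 1042.5 (35S:MYB106VP16) or 1237.6 (wild type), with no centring and column medians of 0.331 to 0.438; it served as an alternative, and the sources used here do not explain the constants.

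Genes were tested with limma 3.58.1 (lmFit, eBayes; R 4.3.3) on log2 values of these deposited intensities, genotype being the only term. A prior run on simulated data had independent noise and only 200 changed genes. In the real data 52.9% of genes were called and each genotype had its own slide, so that run says little about the calls made here. A fold written "at least" sets the transgenic mean against, per wild-type array, its own signal or, if higher, the dimmest signal flagged as well above background. Such a bound holds for processed signal under this rule only. Unflagged probes can be brighter than that dimmest signal, so it is no strict limit on RNA levels. Normexp gave smaller changes for these genes, at log2 0.55 (WRKY30), 0.08 (WRKY50) and 1.40 (CYP71A13). Members and lists were chosen with earlier results of these data known. Array values are given for members called at 2-fold or more, the pair with the largest changes in each structural group, undetected genes and the leading listed genes; others shown were chosen after their values were seen. The alternatives were other scalings (median, quantile, series table, spike-ins), normexp, other filters on dim probes, the mean over probes, each array left out and a replicate block. Promoter and protein sequences were not used here.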

Additional observations from a re-analysis of the deposited data

Results flagged for a closer look

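A single array stood apart from the other 3 of its genotype in 8 of 87 sets of 35S:MYB106VP16 values examined (tested WRKY, partner and target genes and MYB106), while chance gives about 1 in 20; groups of 3 wild-type arrays were not examined in this way. Values are log2 relative signals.

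Replicate 3 was the array set apart for 4 WRKY genes. WRKY63 was at -4.93 there and between -4.43 and -4.35 on the others, WRKY55 at -7.99 beside -6.51 to -6.44, WRKY17 at -1.20 beside -1.06 to -1.04, and WRKY28 at -1.25 beside -1.60 to -1.57. Replicate 4 was high for WRKY38 (-5.02 beside -5.89 to -5.78) and WRKY56 (-3.94 beside -4.56 to -4.45). Replicate 2 was high for WRKY68 (-5.79 beside -6.05 to -6.01) and SARD1 (-3.58 beside -4.61 to -4.47). The calls of WRKY63, WRKY17, WRKY28, WRKY38, WRKY68 and SARD1 were kept when any single array was left out.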

How the results depend on the processing

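No fit with slide as a block could be made, because each genotype had its own slide. Of 971 values of the 61 WRKY genes under alternatives, 834 kept their side of the threshold, 26 of them uncalled with the other sign, 93 lost a call, 29 gained one, and 15 with a call in at least 1 of the settings compared changed sign. Calls were kept in every alternative that tested them by 11 of the 25 members higher and 5 of the 14 lower. Scaling by median, series table or spike-ins shifts all genes alike; the cause of the other changes was not tested. Depth of signal limits dim members: WRKY30, WRKY38, WRKY50, WRKY54 and WRKY55 were not testable where all 7 arrays had to be well above background.

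With spike-in scaling the counts became 12 WRKY genes higher and 29 lower, 10 partners lower, 2 targets higher and 5 lower, and 1253 and 13198 of all genes higher and lower (5768 and 5083 in the values reported), and the WRKY median became -0.34. Log2 changes that turned negative and were called there or in the values reported were those of HDA19 (-0.55), MEKK1 (-0.48), PHO1 (-0.51), PHT1;1 (-0.48), WRKY1 (-0.45), WRKY11 (-0.53), WRKY14 (-0.13), WRKY16 (-0.26), WRKY18 (-0.085), WRKY27 (-0.43), WRKY35 (-0.029), WRKY39 (-0.44), WRKY41 (-0.56), WRKY48 (-0.021), WRKY6 (-0.30), WRKY69 (-0.26) and WRKY72 (-0.49). With probes of a gene averaged, WRKY6 was at -0.024 and WRKY72 at -0.47, and 2 targets were lower. In the authors' series table, calls of lower signal were made for 6 WRKY genes, 0 partners and 2277 of all genes, 2 partners were higher, and the WRKY median was 0.43. Median scaling gave 1 partner higher and 2 lower, and the strictest filter on dim probes 2 targets higher.

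Without single arrays, 20 to 24 WRKY genes were higher and 9 to 15 lower, the lowest count being without wild-type replicate 2; partners had 0 to 1 higher and 2 to 5 lower, targets 3 to 5 higher and 1 to 2 lower, and all genes 4226 to 5498 higher and 3878 to 5122 lower. The WRKY median was 0.12 to 0.24.

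Same-numbered arrays of the genotypes share only a number: their deviations correlated at 0.179, -0.0259 and -0.082. With that number as a replicate block, 21 WRKY genes were higher and 13 lower, 0 partners were higher and 2 lower, and 4 targets higher and 1 lower. All genes had 4596 higher and 4470 lower, and the WRKY median was 0.14. Wild type had no replicate 4, so transgenic replicate 4 had no weight in these changes, which equal those found without it.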

Other observations

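RRS1, a resistance protein with a WRKY domain whose only family synonym is ATWRKY52, lay outside the naming rule. Its log2 change was -0.10 and was not called (limma adjusted p = 0.333).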
